A study of Mus musculus with 2 samples.

Results

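Genes of the Paneth cell granule, 6 of the 31053 genes counted in the deposited libraries, were followed through the cells of an Apc-deleted small intestine. They are Lyz1 (lysozyme 1), Defa24 and Defa30 (alpha-defensins), Itln1 (intelectin 1), Ang4 (angiogenin 4) and Mmp7 (matrix metallopeptidase 7), and they were chosen by their symbols. All 6 were detected in both libraries. The libraries, made with 10x 3′ v3 chemistry, came from 2 VilCreER Apc fl/fl mice, called APC mice, and held dissociated cells of the proximal small bowel after a sort against dead cells. Tamoxifen was injected 2 times at 2 mg, 24 h apart, and day 4 was the day of sampling. The Villin promoter drives the tamoxifen-dependent recombinase in intestinal epithelium, and loss of Apc there releases WNT signalling. Both libraries belong to this 1 group and the age of the mice is not given in the sources used here, so every comparison below is between cell classes within the same 2 mice.

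Depth differed between the libraries. Mouse 1 gave 85670711 unique molecular identifiers (UMIs, 1 per captured transcript) over 9645 barcodes, and mouse 2 gave 38716743 UMIs over 8800 barcodes. Barcodes with over 100 genes, over 400 UMIs, under 5% mitochondrial and under 10% haemoglobin UMIs were kept, which left 7941 and 6957. Leukocytes made up 79.0% and 92.4% of them. Barcodes were placed in classes by marker genes that hold none of the members. The Paneth gate asked for at least 2% of UMIs from 18 other defensin and Paneth genes and took 10 barcodes in mouse 1 and 7 in mouse 2. The crypt gate, on stem and proliferation genes, took 100 and 30 barcodes, the enterocyte gate 527 and 109, the goblet gate 8 and 9, and the leukocyte gate 6271 and 6425. Apc itself was counted at 54.6 and 73.7 CPM (UMIs per 1000000 UMIs of the class) in crypt-gated and 80.1 and 52.7 CPM in enterocyte-gated barcodes; with no control mice, and with tags from the transcript's end, this does not check the deletion.

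Paneth cells sit at the base of the crypts, between the stem cells, and secrete antimicrobial proteins from large granules. Alpha-defensins are made as inactive precursors, and in the mouse Mmp7 cuts them to their active form. Lyz1 digests bacterial cell walls, Ang4 is an antimicrobial ribonuclease and Itln1 is a lectin that binds bacterial sugars. Paneth cell maturation depends on WNT signalling, and loss of Apc in the intestine is known to move Paneth cells away from the crypt base. Granule transcripts are so abundant that RNA from broken cells reaches droplets that hold other cells. Leukocytes should lack these transcripts, so the UMIs per leukocyte barcode were taken as the level of free RNA.

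Near copies set a limit on what the counts of 3 members mean. On GRCm38 (mm10, GENCODE vM21), Defa24 lies on the plus strand of chromosome 8 from 21734494 to 21735471 and Defa30 on the same strand from 21134642 to 21135598, each with 2 exons and a coding part of 279 bases. The 2 coding parts differ at 4 bases and were 98.6% identical. The last 90 coding bases, which hold most of the mature peptide, are shown because the defensin results below rest on telling these transcripts apart. They are coding exon sequence on the plus strand, chr8:21735285-21735374 for Defa24 and chr8:21135411-21135500 for Defa30, and capitals mark the base that differs.
Defa24: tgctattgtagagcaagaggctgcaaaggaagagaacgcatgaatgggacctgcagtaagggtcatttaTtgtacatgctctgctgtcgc
Defa30: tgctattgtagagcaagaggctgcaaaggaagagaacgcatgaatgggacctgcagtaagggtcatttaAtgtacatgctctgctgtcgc
Of the 211 windows of 90 bases in the last 300 bases of the Defa24 transcript, none was found unchanged in a transcript of another gene, and 28.0% came within 1 base of Defa30. Of the Defa30 windows, 3 (1.42%) were shared unchanged with Defa23 or Defa31, and 47.9% came within 1 base of another Defa gene. Counts of single defensin genes are therefore uncertain where reads were placed by 1 or 2 bases.

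Lyz1 lies on the minus strand of chromosome 10 from 117287797 to 117292868, beside its copy Lyz2, the lysozyme of macrophages and neutrophils, at 117277331 to 117282321. Both genes have 4 exons and 444 coding bases, which differ at 22 bases. Their last 90 coding bases are shown because Lyz1 was seen outside Paneth cells, and capitals mark the differing bases. They are coding exon sequence on the minus strand, joined across an intron, from chr10:117288586-117289144 for Lyz1 and chr10:117278124-117278668 for Lyz2.
Lyz1: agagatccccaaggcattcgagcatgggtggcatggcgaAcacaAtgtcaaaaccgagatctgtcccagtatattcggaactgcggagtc
Lyz2: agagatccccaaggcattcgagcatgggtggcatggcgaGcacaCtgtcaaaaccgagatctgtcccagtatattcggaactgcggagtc
In the last 300 transcript bases, 7.11% of the Lyz1 windows were shared with Lyz2. The 2 genes were counted in different classes. Myeloid barcodes held 17105 and 16326 UMIs of Lyz2 but 53 and 11 of Lyz1, which is 0.310% and 0.0674% of the Lyz2 count, and Paneth-gated barcodes held 5419 and 453 UMIs of Lyz1 but 1 and 0 of Lyz2. For the other members only unchanged windows were looked for: none of Itln1 (chromosome 1, 171518122 to 171535294, minus strand), Ang4 (chromosome 14, 51763878 to 51773590, minus strand) or Mmp7 (chromosome 9, 7692090 to 7699585, plus strand) was shared with another gene.

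In Paneth-gated barcodes the 6 members together made up 39.6% of all UMIs in mouse 1 and 43.0% in mouse 2 (41.3% ± 2.44, SD, n = 2 mice). These 17 barcodes held 67.0% and 60.6% of all member UMIs in the kept barcodes. Among the defensins, Defa24 stood at 276639 and 238912 CPM (257775 ± 26677, SD, n = 2). Defa30 stood at 21971 and 112294 CPM, the widest gap between the mice of any member. The 3′ tags count 1 molecule whatever the transcript's length, so the levels of the genes can be set side by side. Lyz1 stood at 52152 and 26060 CPM, Itln1 at 22838 and 36760 CPM, Ang4 at 13079 and 6731 CPM, and Mmp7, the defensin-processing enzyme, at 8960 and 9435 CPM (9197 ± 336, SD, n = 2).

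Defa24 was the highest member in both mice, and the order of the rest differed between them. Mouse 1 had Lyz1 second, then Itln1 and Defa30, whose exact Poisson intervals overlapped (21928 to 23775 and 21079 to 22892 CPM). Mouse 2 had Defa30 second, then Itln1, Lyz1, Mmp7 and Ang4, and the intervals of Mmp7 and Ang4 touched (8046 to 10994 and 5566 to 8067 CPM). These intervals, like all those below, cover counting error only. The Paneth-gated barcodes ranged from 553 to 37573 UMIs in mouse 1 and from 608 to 4906 in mouse 2. The gate's edge was clear: the lowest share of gate genes inside was 7.23% and 6.43%, and the highest among other epithelial barcodes, a goblet-gated one in each mouse, was 2.72% and 2.82%. In all, 2 and 1 kept barcodes over the 2% threshold were in other classes, these goblet-gated ones included.

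**Figure D1:**
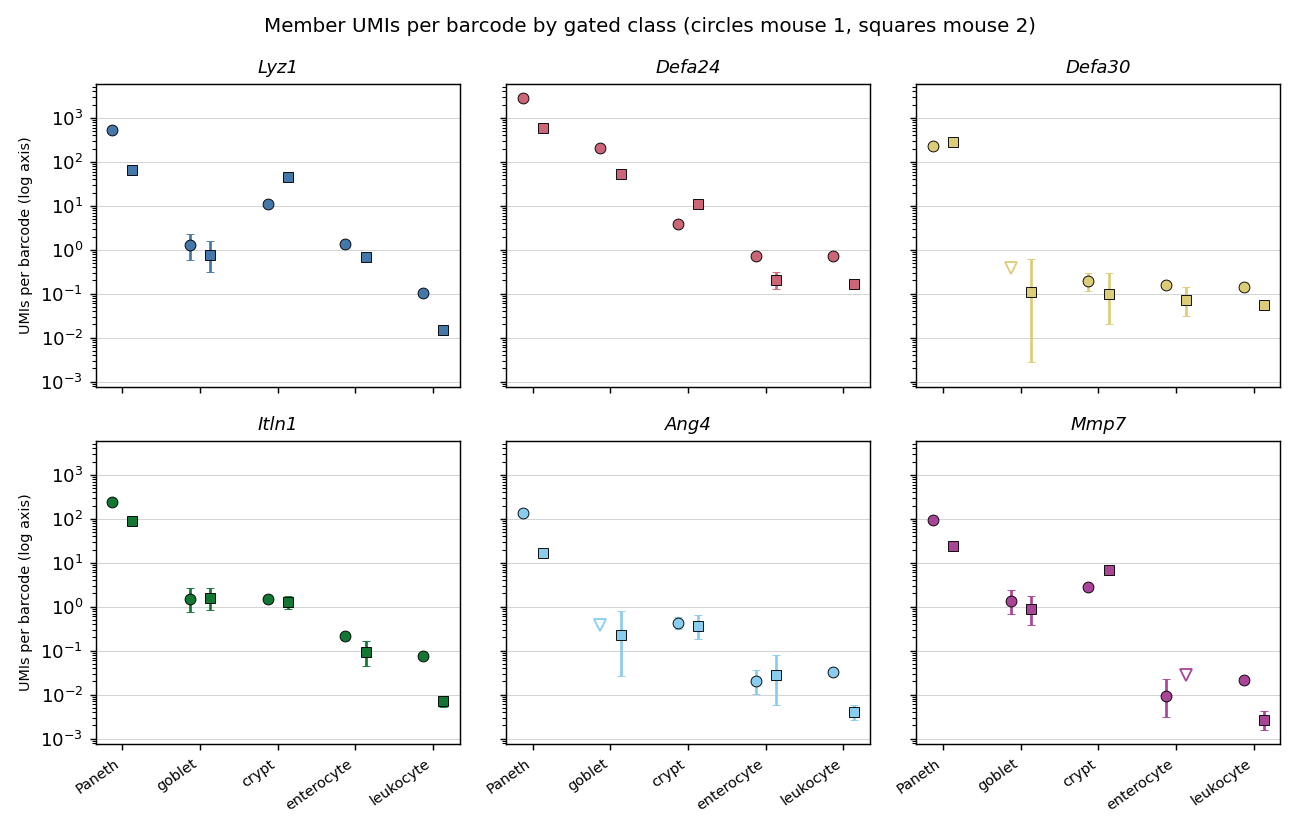
Mean UMIs per barcode (log axis) of each member in Paneth-, goblet-, crypt-, enterocyte- and leukocyte-gated barcodes, circles for mouse 1 and squares for mouse 2, with exact Poisson 95% intervals; open triangles mark the limit that a count of 0 allows. Every member was highest in Paneth-gated barcodes, Defa30 was near its leukocyte level in all other classes, and Mmp7 and Lyz1 stood far above it in crypt-gated barcodes.

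Paneth-gated barcodes did not all hold Defa30. The number of Defa30 UMIs per Defa24 UMI fell into a high and a low range with nothing between 0.00894 and 0.136. In mouse 1, 6 barcodes had 0.136 to 0.627 and 4 had 0 to 0.00894. In mouse 2, 5 barcodes had 0.476 to 0.590 and 2 had 0 to 0.008. The limit of 0.1 used to part them was set after the values were seen, so the sets are a description with no test. The deepest Paneth-gated barcode, with 37573 UMIs, held 11809 UMIs of Defa24 and 14 of Defa30, whereas one of 5032 UMIs held 1523 and 639.

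Some other granule genes went with Defa30 in these barcodes, in mouse 1 mostly through a few of them. The barcodes rich in Defa30 held 383 and 1119 UMIs of the predicted gene Gm14851, 391 and 272 of Mptx2 (a mucosal pentraxin of Paneth cells) and 306 and 148 of Defa21. The barcodes poor in Defa30 held 1 and 0, 30 and 0, and 0 and 3 UMIs of these genes, all of which belong to the Paneth gate. Gm14851 was not in every rich barcode of mouse 1, where it ranged from 0 to 276 UMIs. The barcode with 276, of 5032 UMIs, also held 332 of the Mptx2 UMIs. The rich barcode of 14633 UMIs held 0 of Mptx2 and 0 of Defa21, and the poor one of 37573 UMIs held 30 of Mptx2. Ang4 was lower in the rich than in the poor set of mouse 1 (0.577% and 1.63% of UMIs) and higher in mouse 2 (0.813% and 0.346%). Lyz1 did not part the sets in the same way, at 5.89% of UMIs in the rich and 4.92% in the poor set of mouse 1, and 2.88% and 1.96% in mouse 2. Spink4, a secretory protease inhibitor shared by Paneth and goblet cells, made up 6.27% and 5.99% in mouse 1, and 1.31% and 7.16% in mouse 2. The rich barcodes had a median of 322.5 and 214 genes, and the poor ones 2343 and 788.5. Depth went with this, at a median of 2872 and 2119 UMIs in the rich and 15880.5 and 2604.5 in the poor barcodes, and its part in the gene counts was not tested. Since Defa21 and Defa24 belong to 1 family of near copies, how far read placement among them enters this pattern was not tested.

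**Figure D2:**
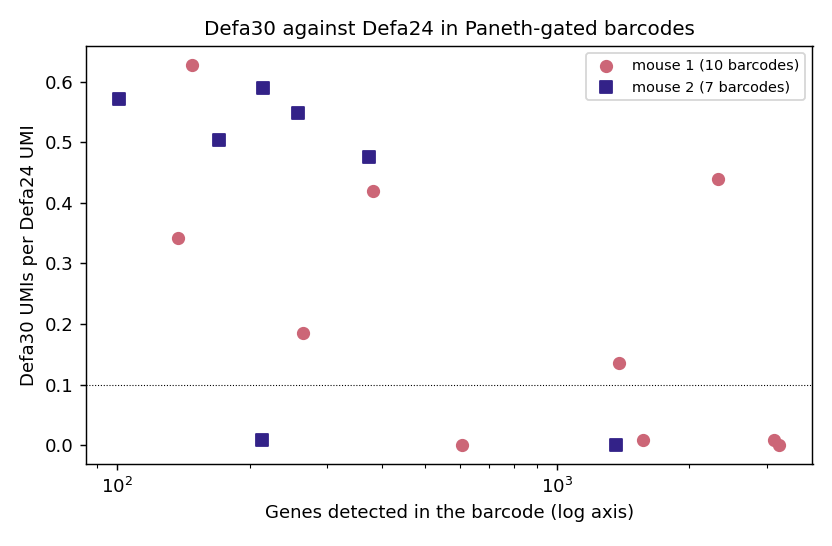
Defa30 UMIs per Defa24 UMI of each Paneth-gated barcode against the number of genes detected in it (log axis), circles for mouse 1 and squares for mouse 2, with the dotted line at 0.1. The barcodes lie either at or under 0.00894 or at 0.136 and more, and those over the line hold fewer genes as a rule, on a median of 2872 and 2119 UMIs against 15880.5 and 2604.5.

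In leukocyte-gated barcodes the members together gave 1.11 UMIs per barcode in mouse 1 and 0.253 in mouse 2. A barcode with at least 1 member UMI was seen in 56.3% and 19.8% of them. Defa24 alone gave 0.731 and 0.168 UMIs per barcode. Its level per barcode lay close together in T or innate lymphoid, B and myeloid barcodes, and was higher in plasma barcodes of mouse 1. In mouse 1 it was 0.523 in T or innate lymphoid barcodes, 0.5 in B, 0.601 in myeloid and 1.04 in plasma barcodes, and 0.651 in the 186 pancreatic acinar barcodes. In mouse 2 it was 0.163, 0.226, 0.222 and 0.150 in the 4 leukocyte types. Plasma barcodes of mouse 1 were the highest of these and also the deepest, with a median of 23086 UMIs against 3314 in T or innate lymphoid barcodes. On the CPM scale the same types ranged from 43.4 to 142 in mouse 1 and from 7.16 to 94.1 in mouse 2.

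The make-up of the member UMIs in leukocytes followed the most abundant Paneth transcript. Defa24 made up 66.0% and 66.5% of them, Defa30 13.1% and 22.1%, Lyz1 9.15% and 5.97%, and Mmp7 1.93% and 1.05%. In Paneth-gated barcodes the same shares were 69.9% and 55.5% for Defa24, 5.55% and 26.1% for Defa30, 13.2% and 6.06% for Lyz1, and 2.26% and 2.19% for Mmp7. A few leukocyte barcodes stood out in mouse 1: 18 had 10 or more member UMIs and 4 had 50 or more, up to 365, while mouse 2 had none above 7. Without the 3 highest barcodes, Defa24 was at 0.660 and 0.166 UMIs per leukocyte barcode. The leukocyte level of all members came to 0.0269% and 0.0237% of the mean member UMIs of a Paneth-gated barcode, 5.61% and 0.388% of a crypt-gated one and 45.1% and 23.4% of an enterocyte-gated one. The crypt mean rests on the 3 barcodes of each mouse with most member UMIs. Without them, crypt-gated barcodes held only 2.19 and 12.6 times the leukocyte level.

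**Figure D3:**
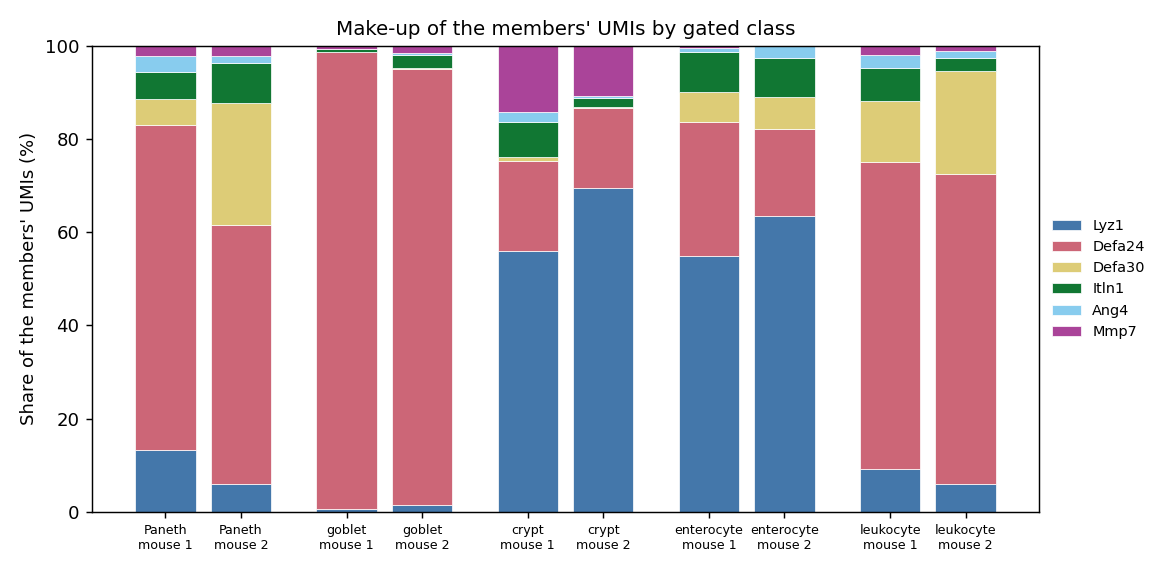
Share of the members' UMIs (%) that each member takes, by gated class and mouse. Leukocyte and Paneth bars are mostly Defa24, goblet bars almost wholly so (98.1% and 93.6%), and crypt and enterocyte bars are led by Lyz1 (56.0% and 69.5%, 55.0% and 63.6%). The crypt bars rest on the 3 barcodes of each mouse with most member UMIs, which held 96.4% and 98.4% of the Lyz1. In the other crypt-gated barcodes Lyz1 had 40 and 22 UMIs, under Mmp7 (70 and 25) and Defa24 (66 and 33).

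Goblet-gated barcodes, chosen on the summed UMIs of Muc2, Fcgbp, Clca1, Zg16 and Tff3, carried Defa24 with almost nothing else of the set. Muc2 itself was at 0 to 7 UMIs in mouse 1 and 0 to 27 in mouse 2, against 16 to 354 and 40 to 180 of Tff3. They held 1668 UMIs of Defa24 in 8 barcodes of mouse 1 and 465 in 9 barcodes of mouse 2, against 10 and 7 UMIs of Lyz1, 12 and 14 of Itln1, 11 and 8 of Mmp7, and 0 and 1 of Defa30. At least 25 Defa24 UMIs were found in 5 of 8 and 6 of 9 of them, and the 3 highest held 96.5% and 71.4% of the Defa24. The highest barcode of mouse 1 held 1163 Defa24 UMIs, or 13.1% of its transcripts, beside 30.4% of goblet gate genes and 7 UMIs of Lyz1. In Paneth-gated barcodes, 1 Defa24 UMI came with 0.0794 and 0.470 of Defa30 and with 0.189 and 0.109 of Lyz1, while in goblet-gated ones it came with 0 and 0.00215 of Defa30 and with 0.00600 and 0.0151 of Lyz1. With 3 counts as the limit for a count of 0, Defa30 in the goblet-gated barcodes of mouse 1 was at most 132 CPM. Goblet-gated barcodes entered no test, and whether another Defa gene was counted as Defa24 in them was not tested.

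Crypt-gated barcodes, chosen on stem and proliferation genes in the Apc-deleted gut, held more member UMIs per barcode than leukocytes did, and nearly all of them were in a few barcodes. This was not particular to the crypt gate. The 108 and 33 epithelial barcodes in none of the gates held 33.1 and 4.15 member UMIs each, 93.5% and 87.6% of them in 3 barcodes. Lyz1 was at 2350 and 296 CPM in them, against 603 and 2009 CPM in crypt-gated barcodes. In crypt-gated barcodes the mean was 19.7 member UMIs per barcode in mouse 1 and 65.3 in mouse 2, but the median was 2 in both. The 3 highest barcodes of mouse 1 held 763, 612 and 362 member UMIs, and those of mouse 2 held 1092, 476 and 305. Lyz1 was the leading member in 5 of these 6 barcodes, with 510 and 302 UMIs in 2 barcodes of mouse 1, and 966, 191 and 183 in mouse 2. The sixth had 253 of Lyz1 and 265 of Defa24. All 6 held 44 to 98 UMIs of Mmp7 and 0 or 1 of Defa30, and the members made up 0.868% to 3.47% of their UMIs, far under the share in Paneth-gated barcodes.

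These barcodes passed the crypt gate on several genes at once, with 9 to 15 of the 16 crypt genes detected. They held 2 to 9 UMIs of Mki67 (a proliferation marker), 30 to 73 of Hmgb2, 0 to 9 of Lgr5 (a stem cell marker) and 0 to 29 of Sox9, a factor that Paneth cells need and that crypt progenitors also express. Spink4 was at 503 to 1138 UMIs in 5 of them and at 4 in the other. In a clustering that left out the members, all defensins and the Paneth gate genes, all 17 Paneth-gated barcodes and all 6 of these fell into 1 cluster, which took 8 of 100 and 5 of 30 crypt-gated barcodes. That cluster was a mixed one of 363 and 103 barcodes, which over both mice also held 16 goblet-gated, 17 enteroendocrine, 67 other epithelial, 45 leukocyte and 6 enterocyte barcodes. The crypt-gated barcodes in that cluster held 219 and 378 member UMIs per barcode, and those in other clusters 2.41 and 2.80. The 6 barcodes with most member UMIs were 24960 to 36203 UMIs deep, against a median of 13328 and 20093 for the class. Mitochondrial UMIs made up 1.64% to 2.66% of their UMIs in mouse 1 and 2.88% to 3.28% in mouse 2. The median of the class was 0.0303% and 0.00988%, and its highest barcode had 4.87% and 4.58%. How far the state of these 6 cells or of their RNA enters their member UMIs was not tested. Whether any of the 6 holds 2 cells was not tested either.

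**Figure D4:**
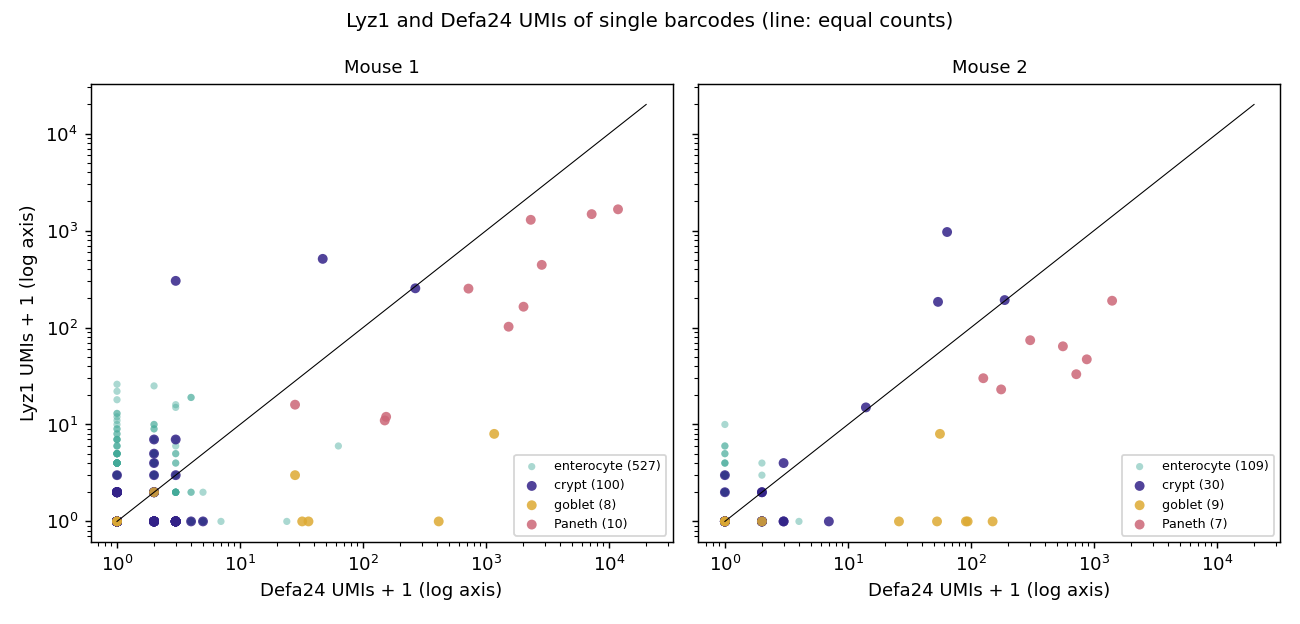
Lyz1 against Defa24 UMIs of single barcodes (1 added to each, log axes) in Paneth-, goblet-, crypt- and enterocyte-gated barcodes of each mouse, with a line of equal counts. Paneth-gated barcodes lie under the line and goblet-gated ones along the Defa24 axis. The 3 highest crypt-gated barcodes of each mouse, at 183 to 966 Lyz1 UMIs, lie above the line. The exception is 1 of mouse 1 just under it, with 253 of Lyz1 and 265 of Defa24.

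Without these 3 barcodes per mouse, picked on their member UMIs, the remaining 97 and 27 crypt-gated barcodes held 2.42 and 3.19 member UMIs each. Defa30 was at 0.175 and 0.111 per barcode, close to its leukocyte level of 0.145 and 0.0559, and Defa24 at 0.680 and 1.22 against 0.731 and 0.168. Mmp7 stood apart. It remained at 0.722 UMIs per barcode in mouse 1 (95% interval 0.563 to 0.912) and 0.926 in mouse 2 (0.599 to 1.37), against 0.0214 and 0.00265 in leukocytes, which is 33.8 and 350 times as much per barcode. Per UMI, since crypt-gated barcodes were deeper, it was at 40.1 and 43.5 CPM against 1.96 and 0.522 CPM, or 20.5 and 83.3 times as much. A UMI of Mmp7 was seen in 23.7% and 29.6% of these barcodes, against 1.93% and 0.265% of leukocytes, with medians of 4490 and 2840 UMIs. Lyz1 remained at 0.412 and 0.815 per barcode, against 0.101 and 0.0151, or at 22.9 and 38.2 CPM against 9.28 and 2.98 CPM. In mouse 2, 1 further barcode of 11713 UMIs held 14 of the 22 remaining Lyz1 UMIs and 13 of the 33 of Defa24. The 3 barcodes had held 96.4% and 98.4% of the Lyz1 UMIs of the class and 75% and 88.04% of the Mmp7. Per UMI, Defa24 came to 0.565 and 1.73 times its leukocyte level and Defa30 to 0.734 and 0.473 times.

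Summed per mouse and class and fitted in edgeR, 4 of 6 members were higher in crypt-gated than leukocyte-gated barcodes, where 22.9% of all 9748 genes tested were called higher. Lyz1 was higher by 6.77 ± 1.18 on the log2 scale (SE, edgeR adjusted p = 0.000246), Mmp7 by 6.55 ± 0.96 (edgeR adjusted p = 5.3e-05), Itln1 by 3.08 ± 0.91 (edgeR adjusted p = 0.0110) and Ang4 by 2.52 ± 0.89 (edgeR adjusted p = 0.0281). Defa24 differed by 1.91 (edgeR adjusted p = 0.131) and Defa30 by -1.36 (edgeR adjusted p = 0.205). Each of the 4 was higher in both mice. The calls rest in part on the 3 highest barcodes: without them Ang4 came to -1.001, and with classes made from clusters only Mmp7 passed, at 4.21 (edgeR adjusted p = 0.00384, the highest over its alternatives, which go down to 5.8e-31). With mouse as a replicate block, Defa24 passed as well (edgeR adjusted p = 0.0106).

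Against enterocytes, 2 of 6 members were higher in crypt-gated barcodes, with 17.2% of all genes called higher. Mmp7 was higher by 7.30 ± 1.13 on the log2 scale (edgeR adjusted p = 0.000247), with 152.8 and 308 CPM in crypt-gated and 1.29 and 0 CPM in enterocyte-gated barcodes. Lyz1 was higher by 2.59 ± 0.98 (edgeR adjusted p = 0.0490), with 603 and 2009 CPM against 183 and 136 CPM. The Lyz1 difference turned in direction without the 3 highest crypt barcodes, to -2.80, and with classes from clusters, to -2.35 (edgeR adjusted p = 0.0398). The Mmp7 difference kept its direction, at 4.19 with classes from clusters (edgeR adjusted p = 0.0189). Over the alternatives with a test, the adjusted p went from 1.27e-07 to 0.0490 for Lyz1 and from 2.61e-23 to 0.0189 for Mmp7 with edgeR or DESeq2. With mouse as a replicate block, 4 members passed, Ang4 (edgeR adjusted p = 0.00903) and Defa24 (edgeR adjusted p = 0.0183) as well.

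Enterocytes carried Lyz1 far above the leukocyte level in both mice, and Defa24 and Defa30 near it. Of 527 and 109 enterocyte-gated barcodes, 45.7% and 33.03% held a Lyz1 UMI, against 8.79% and 1.45% of leukocytes, and the median depths were 5354 and 3294 UMIs against 4490 and 2840. The mean was 1.35 and 0.688 Lyz1 UMIs per barcode, 13.3 and 45.6 times the leukocyte level, and the highest barcodes held 25 and 9. Thinned to 1000 UMIs, 14.0% and 9.78% of enterocyte-gated barcodes held Lyz1, against 1.70% and 0.445% of leukocytes. Defa24 was close to the leukocyte level, at 0.704 and 0.202 UMIs per enterocyte-gated barcode, 0.963 and 1.2 times it, and Defa30 was at 1.09 and 1.31 times it. Thinned to 1000 UMIs, 11.7% and 5.59% of enterocyte-gated barcodes held Defa24, against 10.8% and 5.23% of leukocytes. Lyz1 outnumbered Defa24 by 1.92 and 3.41 to 1 in enterocytes, whereas in leukocytes it came to 0.138 and 0.0897 per Defa24 UMI.

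Lyz1 followed the depth of the enterocyte barcode and Defa24 did not. In mouse 1, Lyz1 was at 0.207 UMIs per barcode for enterocytes of 400 to 2000 UMIs, 0.444 up to 5000, 1.31 up to 10000, 3.14 up to 20000 and 4.89 above. Defa24 over the same ranges was at 0.759, 0.519, 0.865, 0.568 and 1.11. In mouse 2, Lyz1 was at 0.0606, 0.3, 0.9 and 2.69 up to 20000 UMIs, the last of these over 13 barcodes, while Defa24 was between 0.0769 and 0.25. Leukocytes of mouse 1 went from 0.0602 to 0.159 for Lyz1 over the same ranges, and those of mouse 2 stayed between 0.0112 and 0.0285.

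**Figure D5:**
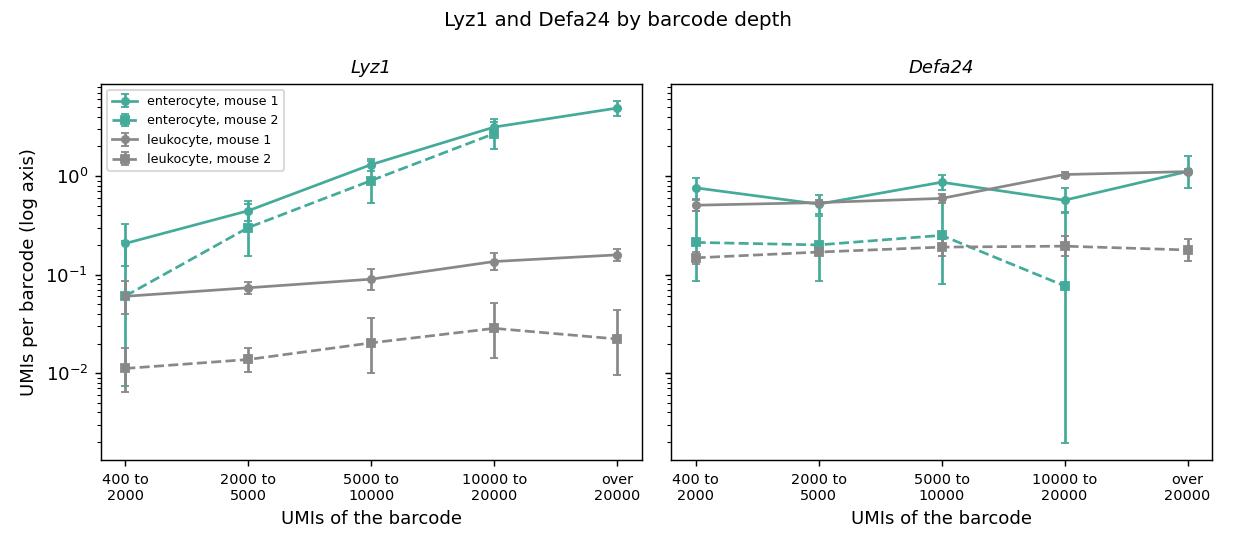
UMIs per barcode (log axis) of Lyz1 and Defa24 in enterocyte- and leukocyte-gated barcodes by the UMIs of the barcode, circles and solid lines for mouse 1, squares and dashed lines for mouse 2, with exact Poisson 95% intervals. Lyz1 in enterocytes climbs from 0.207 to 4.89 in mouse 1 and from 0.0606 to 2.69 in mouse 2, and Defa24 in enterocytes lies between 0.519 and 1.11 in mouse 1 and between 0.0769 and 0.25 in mouse 2, with leukocytes at 0.505 to 1.11 and 0.148 to 0.194.

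In edgeR, 1 of 6 members, Lyz1, was higher in enterocyte-gated than leukocyte-gated barcodes, by 4.18 ± 1.05 on the log2 scale (edgeR adjusted p = 0.00314), while 26.4% of all genes were called higher. It was higher in both mice, by 3.70 and 5.44. Itln1 differed by 1.96 ± 0.89 (edgeR adjusted p = 0.0701), at 28.8 and 18.2 CPM against 7.0 and 1.41 CPM, and passed in 6 of the alternatives, the mouse block among them (edgeR adjusted p = 0.00227, with 7.22e-06 to 0.108 over all alternatives). Defa24 differed by 0.0046 ± 0.99, Defa30 by 0.22 ± 0.81, Ang4 by 0.38 ± 1.01 and Mmp7 by -0.75 ± 1.12, and none of these passed. Mmp7 had 5 UMIs in 527 and 0 in 109 enterocyte-gated barcodes, which in mouse 2 allows up to 5.45 CPM.

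Paneth-gated barcodes held more of all 6 members than enterocyte-gated ones, by 8.22 to 13.16 on the log2 scale, where 2.02% of all genes were called higher. Mmp7 had the widest difference, 13.16 ± 1.31 (edgeR adjusted p = 3.9e-05), and Lyz1 the narrowest, 8.22 ± 1.26 (edgeR adjusted p = 0.00126). All 6 were also higher than in crypt-gated barcodes, where 0.718% of genes were called. Defa30 led with 13.13 ± 1.29 (edgeR adjusted p = 5.3e-05), and Defa24 came to 10.11 ± 1.45 (edgeR adjusted p = 0.00180). Lyz1, at 5.63 ± 1.12 (edgeR adjusted p = 0.0174), and Mmp7, at 5.85 ± 0.92 (edgeR adjusted p = 0.00384), were the closest between the classes. The crypt levels behind this rest on the 3 crypt-gated barcodes of each mouse with most member UMIs. These held 96.4% and 98.4% of the Lyz1 and 75% and 88.04% of the Mmp7. In the other crypt-gated barcodes Lyz1 was at 22.9 and 38.2 CPM and Mmp7 at 40.1 and 43.5 CPM. The Paneth gate is made of other granule genes, so a high level of members in it says little beyond their sharing a cell. Relative to the median of all genes, which lay at -1.68 and -1.32 in the 2 comparisons, every member's difference is larger by that much in this fit. The median depended on the fit, and with DESeq2 it lay at -0.138 and -0.124.

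Beside the members, 26 other Paneth and secretory genes were followed, of which 21 entered the fit. The list was not cleared of gate genes. It holds Habp2 and Mptx2 of the Paneth gate and Sox9 of the crypt gate. High levels of these in their own class follow in part from the gating, and the counts and medians do not leave them out. Against enterocytes, 13 were higher and 0 lower in Paneth-gated barcodes, and 12 were higher and 3 lower in crypt-gated ones, where 2.02% and 17.2% of all genes were called higher. The list medians were 7.39 and 3.75 on the log2 scale, beside -1.68 and -0.11 over all genes. Agr2, which folds secreted proteins in the endoplasmic reticulum, stood at 1703 and 1438 CPM in Paneth-gated, 606 and 294 CPM in crypt-gated and 5.15 and 0 CPM in enterocyte-gated barcodes (crypt over enterocyte 6.48 ± 0.92, edgeR adjusted p = 0.000133). Spink4 stood at 60794 and 30605 CPM, 914 and 3314 CPM, and 18.0 and 3.63 CPM in these classes (crypt over enterocyte 6.95 ± 1.24, edgeR adjusted p = 0.000677). Reg4, a secreted lectin, was at 2069 and 863 CPM in Paneth-gated and 53.5 and 153 CPM in crypt-gated barcodes, with 1 and 0 UMIs in enterocytes. The crypt values of both rest on the 3 barcodes of each mouse with most member UMIs, which held 98.2% and 95.6% of the Spink4 and 98.0% and 98.1% of the Reg4 UMIs of the class, and 8.28% and 87.9% of the Agr2.

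Wnt3, the WNT ligand that Paneth cells give to stem cells, was seen at 9 and 4 UMIs in Paneth-gated barcodes (86.6 and 230 CPM) and 24 and 19 UMIs in crypt-gated ones (13.1 and 28.0 CPM), with 0 in enterocytes of both mice. Of the crypt UMIs of Wnt3, 10 of 24 and 18 of 19 were in the same 3 barcodes, and it was seen in 6% and 13.3% of the class. Habp2, which is also a gate gene, had 14 and 9 UMIs in Paneth-gated, 12 and 8 in crypt-gated and 0 in enterocyte-gated barcodes, with 6 and 8 of the crypt UMIs in those 3 barcodes. Mptx2, another gate gene, was at 4052 and 15648 CPM in Paneth-gated and 6.95 and 0 CPM in enterocyte-gated barcodes. Nupr1, a stress-response gene, was at 491 and 115 CPM in Paneth-gated and 2.32 and 0 CPM in enterocyte-gated barcodes (7.89 ± 1.08, edgeR adjusted p = 0.00055). Ern2, the stress sensor of secretory epithelium, had 24 and 10 UMIs in crypt-gated and 0 in enterocyte-gated barcodes, with 5 and 10 of the crypt UMIs in those 3 barcodes. The 3 lower in crypt-gated barcodes, named after their values were seen, were the antimicrobial lectins Reg3g (-3.86 ± 0.85) and Reg3b (-4.82 ± 1.07) and the growth factor Tgfa (-2.90 ± 0.63). Against leukocytes, 15 of 21 were higher and 3 lower in crypt-gated barcodes, where 22.9% of all genes were called higher. In enterocytes over leukocytes 6 were higher and 4 lower, near the share of all genes called higher, 26.4%. Against crypt-gated barcodes, 7 of 21 were higher and 0 lower in Paneth-gated ones, where 0.718% of all genes were called higher.

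The genes whose pattern was most like the members' mean were defensins and secretory genes. Over 18 sums of class and mouse, the Pearson correlation of log2 (CPM + 1) was highest for Defa17 (0.945), Defa3 (0.940), Spink4 (0.894), Lrrc26 (0.882) and Mptx2 (0.873), of 13175 genes with at least 50 UMIs. Defa17, Defa3 and Mptx2 are gate genes, and the sums of a mouse share 1 library, so these values are a description. Among the members, Itln1 was most like the others (0.952) and Defa30 least (0.747).

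A sequence read by WNT effectors of the TCF family was looked for in RefSeq promoters (GRCm38.p6, 250 bases before to 50 after each start). The reason was that Mmp7 and Lyz1 were the members called higher in crypt-gated than in enterocyte-gated barcodes. The Lyz1 call rests on the 3 highest crypt barcodes of each mouse. The letters searched were ATCAAAG and TTCAAAG on both strands, and 8.65% of 32851 promoters held either. Promoters of 5 of the 6 members were found, and Defa24 had no entry. Defa30 had a match, 142 bases before its start (chr8:21134482-21134540, plus strand), and Mmp7 had 1, at chr9:7692083-7692112 on the plus strand, with the matched letters in capitals. The table lists 2 promoters of Mmp7, and this match lies 4 bases after the start of the first and 247 bases before that of the other.
Defa30: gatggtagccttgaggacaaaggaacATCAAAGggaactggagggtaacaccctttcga
Mmp7: tgtcaggaaacATCAAAGtagctctgagaa
Lyz1, Itln1 and Ang4 held no match in this window. A match is a description of the letters and not of binding.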

How the data were processed

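Cells of the proximal small intestine of 2 VilCreER Apc fl/fl mice were measured. The deposited values are raw UMI counts per gene and barcode, made by the authors (Cell Ranger 6.1.2, mm10) with no normalization; the annotation release is not given in the sources used here. Cell Ranger counts only reads that map to 1 gene. The libraries shared 24 barcodes, 16 of them kept.

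Epithelial barcodes held at least 5 epithelial UMIs and at least 5 times as many as leukocyte UMIs, and leukocytes the reverse. Crypt-gated ones also had at least 6 crypt genes and 0.2% of UMIs from them, and enterocyte-gated ones at least 1% from their list. The Paneth and goblet gates did not ask for 5 epithelial UMIs. They asked for at least 2% of UMIs from their lists. Leukocyte UMIs had to be at most 2, or epithelial UMIs at least 5 times as many. Paneth-gated barcodes held 1 to 51 epithelial UMIs in mouse 1 and 0 to 4 in mouse 2. Goblet-gated ones held 0 to 39 and 1 to 40. Thresholds were set on the gate genes after their distributions had been seen. No doublet caller was run, and barcodes with both lineages (150 and 40) were set aside.

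Counts were summed per mouse and class (8 sums) and tested with edgeR 4.0.16 (R 4.3.3; TMM, filterByExpr, quasi-likelihood, two-sided, Benjamini-Hochberg over 9748 genes, threshold 0.05). DESeq2 1.42.0 was an alternative. The fit was tested on simulated data. Cells are not replicates, so n is 2 mice. Sums with the same number come from 1 animal, which pairs them: their deviations correlated at 0.258 to 0.288 among crypt, enterocyte and leukocyte sums and at -0.00211 to 0.0784 with the Paneth sums. Clusters came from scanpy 1.11.5.

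The members and lists were chosen with earlier results of these data known. Named were the 6 members, Lyz2 and the other Defa genes, the 6 other secretory genes with the smallest adjusted p over enterocytes in Paneth-gated and in crypt-gated barcodes, and the 5 genes most like the members' mean.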

Additional observations from a re-analysis of the deposited data

Results flagged for a closer look

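Barcodes removed by the filters, which entered the comparisons only in part and only under the alternative with mitochondrial UMIs under 10%, held members above the limit of 3 counts. In the 1704 barcodes removed from mouse 1 there were 354 UMIs of Lyz1, 1406 of Defa24, 286 of Defa30, 242 of Itln1, 75 of Ang4 and 95 of Mmp7. In the 1843 removed from mouse 2 there were 1105 UMIs of Lyz1, 2646 of Defa24, 520 of Defa30, 361 of Itln1, 73 of Ang4 and 162 of Mmp7. In mouse 2, 3 barcodes held 93.8% of the Lyz1 and 81.0% of the Defa24 among these, and in mouse 1 they held 60.2% and 27.5%. Among the removed barcodes, 2 in each mouse passed the Paneth threshold.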

How the results depend on the processing

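All 6 members stayed higher in Paneth-gated than in enterocyte- and crypt-gated barcodes under each alternative that gave a test; the cluster classes held no Paneth class. The count of members higher in crypt-gated than enterocyte-gated barcodes, 2, came to 5 without TMM and with only the compared classes fitted, 4 with mouse as a replicate block, and 1 with classes from clusters. Against leukocytes it went from 4 to 1 with clusters. For enterocytes over leukocytes it went from 1 to 2 without TMM, without the filter on low counts, with the mouse block, with mitochondrial UMIs under 10%, with the Paneth threshold at 1% and without the deepest 5% of barcodes. The block changed no other count of members by over 1.5 times. No test was possible without 1 mouse, since 1 sum per class remained; of single-mouse values, Lyz1 in crypt over enterocyte was 1.38 and 3.47. The cause of these changes was not tested.

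With clusters, the log2 difference of crypt over enterocyte was -2.35 for Lyz1, -0.54 for Defa24, -0.76 for Itln1 and -0.94 for Ang4, and of crypt over leukocyte -0.55 for Defa24 and -0.80 for Ang4. Without the 3 highest crypt barcodes, an alternative chosen after seeing the data, Lyz1 in crypt over enterocyte was -2.80 and Ang4 in crypt over leukocyte -1.001. In enterocyte over leukocyte, Defa24 came to -0.0040 without the filter, -0.11 with only these classes, -0.0017 with mitochondrial UMIs under 10%, -0.0086 with clusters and -0.23 with DESeq2, Defa30 to -0.0068 with DESeq2 and Mmp7 to 0.021 with clusters. The log2 ratio of member UMIs per barcode, crypt over leukocyte and as the mean of 2 mice, was 6.08. It was 3.29 thinned to 1000 UMIs and 2.39 without the 3 barcodes. The mice lay far apart, with ratios before the log of 17.8 and 258, and of 2.19 and 12.6 without the 3 barcodes. For Paneth over crypt the mean was 5.87, and 9.56 without them. The mice held 4111 and 1068 member UMIs per Paneth-gated barcode and 19.7 and 65.3 per crypt-gated one.

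Over all genes, calls higher and lower in crypt over leukocyte were 2229 and 2829, and 3153 and 1604 without TMM and 3485 and 3135 with clusters; in crypt over enterocyte 1673 and 2026, and 2056 and 1284 without TMM; in enterocyte over leukocyte 2575 and 3300, and 2763 and 5201 with only these classes. In Paneth over enterocyte they were 197 and 758, and 453 and 434 with DESeq2, with ranges over all alternatives of 154 to 453 and 291 to 1303. In Paneth over crypt they were 70 and 149, and 211 and 195 with DESeq2, 128 and 1229 without TMM and 182 and 390 with the mouse block, with ranges of 58 to 235 and 146 to 1229. The few Paneth-gated barcodes, 17383 UMIs in all in mouse 2, limit the precision.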
